A study of Homo sapiens with 6 samples.

Results

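The mRNA of 10 genes of the NF-κB pathway was followed in SPT5-AID cells with and without knockdown of ARMC5. They encode the subunits NFKB1, NFKB2, RELA and RELB, the inhibitors NFKBIA and NFKBIE, the ubiquitin enzymes TNFAIP3, BIRC2 and BIRC3, and the adhesion molecule ICAM1. They were chosen by name as subunits, inhibitors and target genes of the pathway, with earlier results of these data known. The 10 genes are among the 35810 genes to which transcripts in the files were matched. SPT5-AID cells derive from the colorectal adenocarcinoma line DLD-1, and the elongation factor SPT5 carries an auxin-inducible degron in both groups. The cells were infected with lentivirus for an shRNA against ARMC5 (shARMC5, 3 libraries) or for a nontargeting shRNA (shNT, 3 libraries) and selected with puromycin. No auxin is named for these libraries, and which ARMC5 construct was used is not given in the sources used here. The comparison asks how depletion of ARMC5, a BTB protein studied as an adaptor of the CUL3 ubiquitin ligase for RNA polymerase II, changed the mRNA of these genes.

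NF-κB proteins are dimeric transcription factors that inhibitor proteins of the IκB family hold in the cytoplasm. In the canonical arm the IκB kinase marks the inhibitors for destruction and RELA with p50, the product of NFKB1, enters the nucleus. In the noncanonical arm the kinase encoded by MAP3K14 leads to processing of the NFKB2 product to p52, the partner of RELB. Many of the genes followed here, among them NFKB2, RELB, NFKBIA, NFKBIE, TNFAIP3, BIRC3 and ICAM1, are themselves known target genes of NF-κB, so that the pathway feeds back on itself.

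The DNA element through which the factors act is the κB site. Its letters in the promoters of these genes are shown because they mark which members carry an exact match to a consensus near an annotated start. RefSeq promoter windows of GRCh38.p14, from 250 bases before to 50 after a start, were searched on both strands for the κB consensus. A match was found in 5.91% of all 35116 windows. Windows were found for 8 of the 10 genes by symbol, 13 windows in all, and 6 of these windows, of 5 genes, held a match. RELB and NFKBIE had no entry. Each line gives 30 bases on the strand of the gene, with the match in capitals and its position relative to the start. The last 5 matches lie on the opposite strand of the gene.
NFKB2, -107 bases, chr10:102394461-102394490, plus strand: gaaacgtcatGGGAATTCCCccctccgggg
NFKB2, -78 bases, chr10:102394490-102394519, plus strand: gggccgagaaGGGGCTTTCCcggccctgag
NFKB2, -21 bases from another start, chr10:102395674-102395703, plus strand: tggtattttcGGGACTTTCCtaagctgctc
NFKB1, -49 bases, chr4:102501300-102501329, plus strand: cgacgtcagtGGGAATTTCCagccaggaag
NFKBIA, -81 bases, chr14:35404811-35404840, minus strand: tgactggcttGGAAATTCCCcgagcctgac
TNFAIP3, -67 bases, chr6:137867182-137867211, plus strand: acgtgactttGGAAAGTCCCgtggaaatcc
TNFAIP3, -55 bases, chr6:137867194-137867223, plus strand: aaagtcccgtGGAAATCCCCgggcctacaa
BIRC3, -199 bases, chr11:102317275-102317304, plus strand: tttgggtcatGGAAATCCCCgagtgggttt
BIRC3, -135 bases, chr11:102317339-102317368, plus strand: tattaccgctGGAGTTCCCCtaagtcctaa

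NFKB2 held 6 matches in 2 of its 3 windows, of which 3 are shown. Left out were a match at -106 bases, which overlaps the first of these, and a separate match at -176 bases from the other start. The first NFKB2 site reads as a match on both strands and is counted on each. No window of RELA, BIRC2 or ICAM1 held an exact match. Sites that depart from the consensus, or lie outside the windows, were not sought, so these genes may still carry κB sites. A match describes letters in a window and does not show that a factor was bound there.

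Polyadenylated RNA was sequenced. The estimated reads on transcripts numbered between 26201112 and 40866478 in the shARMC5 libraries and between 28989462 and 33387846 in the shNT libraries. Levels are reads per 1000000 (CPM) after TMM normalization by edgeR, and a gene is called where the adjusted P value of edgeR's quasi-likelihood test over 13737 genes was under 0.1. The methods of the study name its replicates biological, but neither they nor the labels say whether these were separate cultures or infections, and the P values measure the spread between these samples. ARMC5 itself was lower in every shARMC5 library than in any shNT library, by -1.09 ± 0.08 (SE) on the log2 scale (adjusted P = 5.32e-07). In the check of the cell type, 7 of 10 markers of colorectal epithelium were expressed highly enough to be tested, and their summed TPM was 7807 to 8103 in shARMC5 and 6878 to 7359 in shNT libraries. Most of this sum lay on 2 keratins, KRT8 with means of 3580 and 3209 TPM in shARMC5 and shNT and KRT18 with 3064 and 2614 TPM. Means of the other tested markers ran from 3.56 (VIL1) to 1028 TPM (EPCAM) in shARMC5 and from 8.59 to 1021 TPM in shNT. KRT8 and KRT18 were called higher and VIL1 and CDH17 lower. CDX1 was listed at 0 in every library, LGALS4 was covered by 3 to 13 reads, and no transcript was matched to KRT20. Markers of leukocytes summed to 1.42 to 2.85 TPM in shARMC5 and 1.5 to 3.16 TPM in shNT libraries, with CD3E at 0 and PTPRC covered by at most 1 read. Of these 6 markers 2 were tested and not called, CD68 with 41 to 66 reads and CD14 with 0 to 40 reads per library. Markers of fibroblasts, 2 of 6 tested, summed to at most 1.01 TPM in shARMC5 and 1.31 TPM in shNT libraries. Those of endothelium, 1 of 4 tested, summed to at most 0.368 and 0.231 TPM.

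Higher levels were called in shARMC5 cells for 3 of the 10 genes, NFKB2, NFKBIE and ICAM1, and lower levels for 0. Over all tested genes 4.44% were called higher and 3.3% lower, 7.75% in either direction. All 10 members passed the filter on low counts. The count of higher calls was 2 with DESeq2, with library size only and at a threshold of 0.05, and 0 when edgeR was given a transcript length offset. By DESeq2, too, 0 members were lower, and 0 were lower in edgeR at an unadjusted P under 0.05. The median log2 fold change of the 10 genes was 0.10, against -0.00142 over all tested genes, and it was 0.048 without shARMC5 replicate 2 and 0.045 without shNT replicate 1. The fold change was above 0 for all 10 in edgeR's fit, but 6 of the 7 genes that were not called changed sign in at least 1 of the 14 other fits. In bulk RNA, more transcript per cell and a larger share of cells that hold it cannot be told apart. The plot of levels by library shows the 10 genes side by side.

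**Figure D1:**
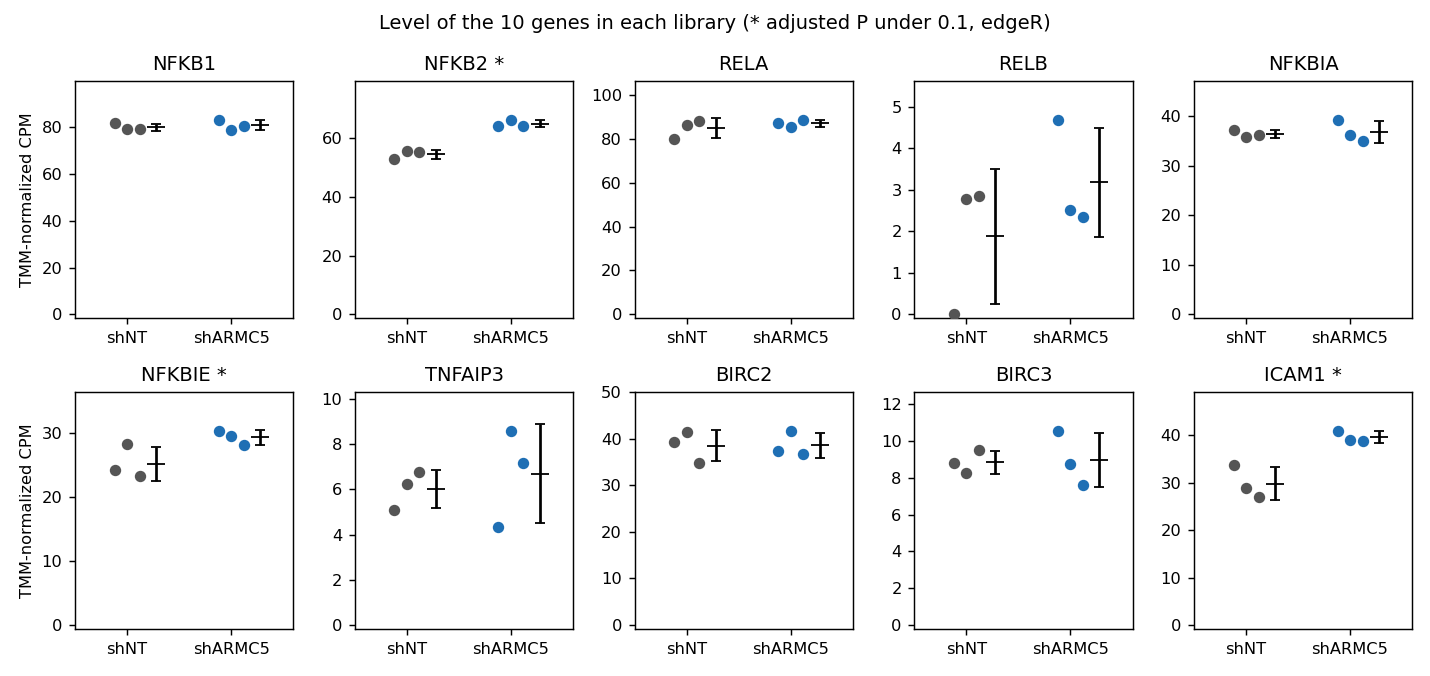
TMM-normalized CPM of each gene (y axis, from 0) in the 3 shNT (grey) and 3 shARMC5 (blue) libraries, with the mean and SD of each group beside the points. An asterisk marks an adjusted P value under 0.1. The shARMC5 points of NFKB2 and ICAM1 lie above all shNT points, and those of NFKBIE lie above 2 of the 3.

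Among the subunits, NFKB2 was higher in shARMC5 cells and the others were not called. NFKB2 (ENSG00000077150, chromosome 10 from 102394110 to 102402524, plus strand, GRCh38) encodes p100, the precursor of p52. Its level was 64.2, 66.2 and 64.0 CPM in shARMC5 replicates 1 to 3 and 52.7, 55.5 and 55.3 CPM in shNT replicates 1 to 3. Every shARMC5 library was higher than every shNT library, which held in this direction for 12.5% of all tested genes and for 2 of the 10 members, NFKB2 and ICAM1. The mean rose from 54.5 ± 1.53 CPM (SD, n = 3) to 64.8 ± 1.17 CPM (SD, n = 3), a ratio of 1.19. On the log2 scale this difference was 0.25 ± 0.04 (SE, adjusted P = 0.00125), on 1550 to 2609 reads per library. The exact permutation test over libraries gave P = 0.1, the smallest that 3 against 3 allow.

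The reads of NFKB2 were divided among its transcripts by salmon, which has to assign reads that fit more than one of them. ENST00000661543, a coding transcript with 44% of the reads of the gene as a mean over libraries, had 1006, 1286 and 702 reads in shARMC5 and 680, 679 and 653 reads in shNT libraries. Its log2 fold change was 0.53 ± 0.10 (SE, unadjusted P = 0.00161, adjusted P = 0.308 over all transcripts). ENST00000652277, with 34.0% of the reads, differed by 0.39 ± 0.11 (SE, adjusted P = 0.751). ENST00000189444 had 0, 197 and 160 reads in shARMC5 and 259, 301 and 267 in shNT libraries. Its share of the reads averaged 5.83% in shARMC5 libraries, from values of 0, 7.55 and 9.94%, and 16.3% in shNT libraries. Its log2 fold change was -1.24 ± 1.41 (SE, adjusted P = 0.9999). In TPM the first 2 transcripts were higher in every shARMC5 library than in any shNT library, and the last one was at 0 in 1 shARMC5 library. A transcript of 356 bases, ENST00000651907, had 0, 51 and 13 reads in shARMC5 and 0 in each shNT library, and it held 21.3% and 9.11% of the TPM of NFKB2 in shARMC5 replicates 2 and 3. By edgeR's test on transcripts, 0 were called of the 34 member transcripts tested, 3 of which had an unadjusted P under 0.05, and over all 51892 transcripts tested 0.00771% were called.

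NFKB1 (ENSG00000109320, chromosome 4 from 102501330 to 102617302, plus strand) encodes p105, the precursor of p50. Its level was 83.1, 78.9 and 80.3 CPM in shARMC5 and 81.6, 79.0 and 79.0 CPM in shNT libraries. The groups overlapped, and the log2 fold change of 0.014 ± 0.036 (SE, adjusted P = 0.891) lay within its error. Within the gene, the share of reads on the transcript ENST00000394820 averaged 26.7% in shARMC5 and 33.9% in shNT cells, and that on ENST00000226574 was 69.5% and 63.9%. The log2 fold change of ENST00000394820 was -0.33 ± 0.13 (SE, unadjusted P = 0.0519, adjusted P = 0.9999 over all transcripts).

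RELA (ENSG00000173039, chromosome 11 from 65653599 to 65663090, minus strand) encodes p65, the main transactivating subunit of the canonical arm. It was at 87.3, 85.6 and 88.7 CPM in shARMC5 and at 79.9, 86.5 and 88.3 CPM in shNT libraries. The lowest of the 6 values was that of shNT replicate 1, and the other 5 values were interleaved. RELA differed by a log2 fold change of 0.038 ± 0.040 (SE, adjusted P = 0.684). The coding transcript ENST00000406246 held 85.2% and 86.9% of its reads in the 2 groups.

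RELB (ENSG00000104856, chromosome 19 from 45001461 to 45038192, plus strand) encodes the partner of p52 in the noncanonical arm. With matched transcripts only, it had 142, 99 and 59 reads in shARMC5 and 0, 90 and 80 reads in shNT libraries. No order of the groups can be read from these values, and the log2 fold change of 0.77 had a standard error of 1.18 (adjusted P = 0.811), with 0.18 without shNT replicate 1, 0.38 without shARMC5 replicate 1 and up to 1.195 without the other libraries. The transcript listed after RELB in the files, ENST00000625761 of 2279 bases, has no entry in GENCODE 44, and the sources used here do not give its gene. It had 329, 483 and 244 reads in shARMC5 and 406, 308 and 182 reads in shNT libraries, more than all matched RELB transcripts in each library. In shNT replicate 1, where RELB was at 0, this transcript had the most reads among the shNT libraries. With it added to RELB, the levels were 15.1, 14.3 and 11.7 CPM in shARMC5 and 12, 11.9 and 9.07 CPM in shNT libraries. The lowest shARMC5 library then lay under 2 shNT libraries, and the log2 fold change was 0.31 ± 0.13 (SE, unadjusted P = 0.0313, adjusted P = 0.218), so that RELB was not called either way.

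**Figure D2:**
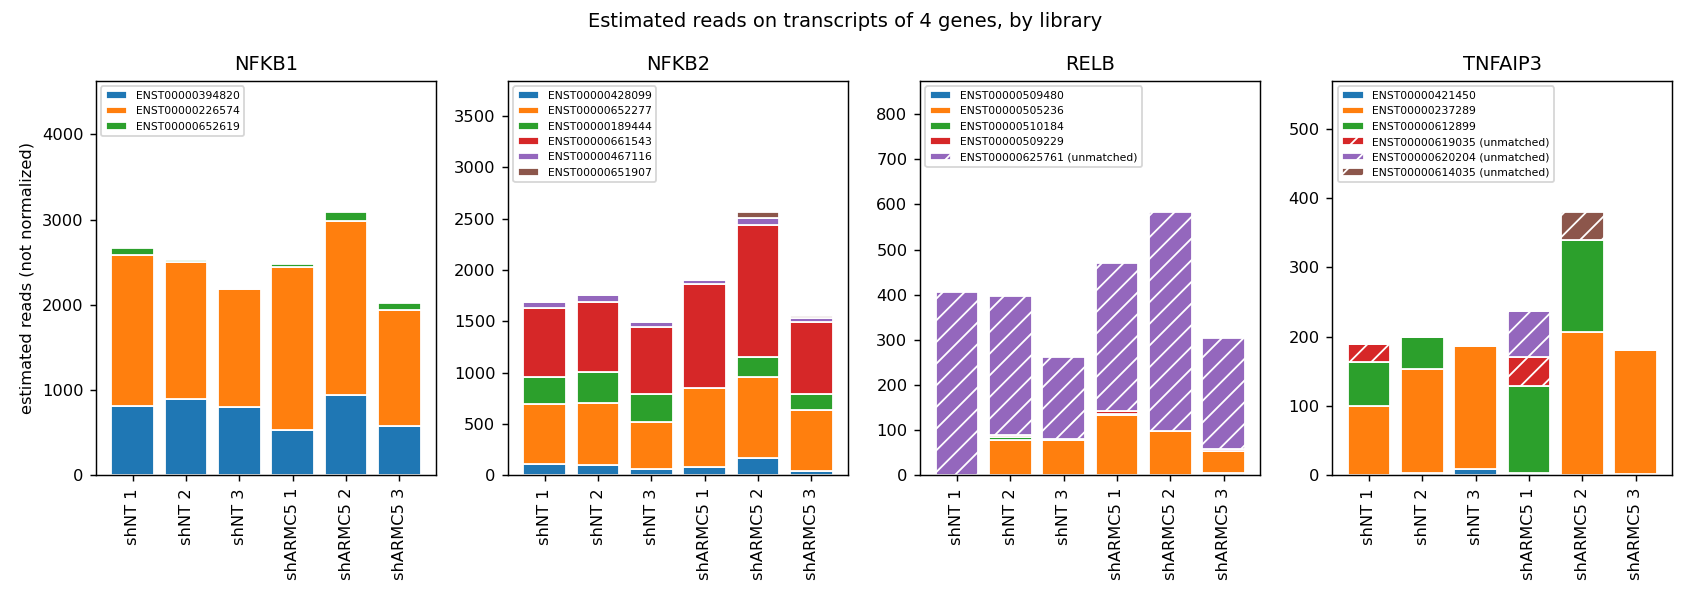
Estimated reads per transcript (y axis, not normalized for depth) of NFKB1, NFKB2, RELB and TNFAIP3 in the 6 libraries, stacked by transcript, without those that had few reads. Hatched bars are transcripts without a match in GENCODE 44 that are listed directly after the gene. RELB had 0 matched reads in shNT replicate 1, TNFAIP3 changed its leading transcript between libraries, and the NFKB2 transcript ENST00000189444 was at 0 in shARMC5 replicate 1.

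The inhibitors gave a small difference for NFKBIE and none beyond the error for NFKBIA. NFKBIE (ENSG00000146232, chromosome 6 from 44258166 to 44265788, minus strand) encodes IκBε, which retains NF-κB dimers in the cytoplasm. Its level was 30.4, 29.6 and 28.1 CPM in shARMC5 and 24.2, 28.3 and 23.2 CPM in shNT libraries. The lowest shARMC5 library lay just under the highest shNT library, replicate 2, so the groups overlapped. The means were 29.4 ± 1.15 CPM (SD, n = 3) and 25.2 ± 2.67 CPM (SD, n = 3), a ratio of 1.16. On the log2 scale NFKBIE differed by 0.22 ± 0.07 (SE, unadjusted P = 0.00757), and the adjusted P value of 0.0989 lay just under the threshold. The call of NFKBIE was lost in 11 of 15 alternatives, and when 1 library was left out it was held only without shNT replicate 2 (adjusted P = 0.0161, and up to 0.311 without the others). Its log2 fold change stayed above 0, at 0.16 to 0.31 without single libraries and 0.30 with a transcript length offset in edgeR.

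NFKBIA (ENSG00000100906, chromosome 14 from 35401079 to 35404749, minus strand) encodes IκBα, the inhibitor that is degraded and made anew in each round of canonical signalling. It was at 39.2, 36.1 and 35.01 CPM in shARMC5 and at 37.2, 35.7 and 36.1 CPM in shNT libraries. The highest and the lowest value were both those of shARMC5 libraries. On the log2 scale NFKBIA differed by 0.018 ± 0.056 (SE, adjusted P = 0.911), and its coding transcript ENST00000216797 held 94.4% and 93.0% of the reads in the 2 groups.

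None of the ubiquitin enzymes was called with matched transcripts. TNFAIP3 (ENSG00000118503, chromosome 6 from 137867214 to 137883314, plus strand) encodes A20, a ubiquitin-editing enzyme that shuts off NF-κB signalling. Its level was 4.32, 8.60 and 7.18 CPM in shARMC5 and 5.08, 6.23 and 6.74 CPM in shNT libraries. The shARMC5 libraries held both the lowest and the highest values, and the log2 fold change was 0.16 ± 0.26 (SE, adjusted P = 0.814). The main coding transcript ENST00000237289 had 0, 207 and 179 reads in shARMC5 and 100, 150 and 178 reads in shNT libraries, and ENST00000612899 had 125, 132 and 0 against 64, 47 and 0 reads. In shARMC5 replicate 1, where the first of these was at 0, unmatched transcripts listed after TNFAIP3 held reads, 42 on ENST00000619035 and 66 on ENST00000620204. In shNT replicate 1 ENST00000619035 held 25 reads, and in shARMC5 replicate 2 ENST00000614035 held 40.

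When these transcripts, whose gene is not given in the sources used here, were added to TNFAIP3, its level was 7.64, 9.29 and 6.97 CPM in shARMC5 and 5.67, 6.03 and 6.55 CPM in shNT libraries. The groups no longer overlapped. The log2 fold change was then 0.40 (standard error 0.13, adjusted P = 0.0895), and TNFAIP3 was called higher, which held for 4.55% of all genes in that fit. The call of TNFAIP3 thus turned on which transcripts were counted to it.

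BIRC2 and BIRC3 encode the ubiquitin ligases cIAP1 and cIAP2, which act at tumour necrosis factor receptors and hold the noncanonical kinase MAP3K14 at low levels, and they lie next to each other on chromosome 11. BIRC2 (ENSG00000110330, from 102347211 to 102378670, plus strand) was at 37.3, 41.7 and 36.8 CPM in shARMC5 and at 39.3, 41.5 and 34.8 CPM in shNT libraries. Both groups spanned nearly the same range, and the log2 fold change was 0.0037 ± 0.069 (SE, adjusted P = 0.986). BIRC3 (ENSG00000023445, from 102317484 to 102339403, plus strand) was at 10.6, 8.72 and 7.61 CPM in shARMC5 and at 8.81, 8.23 and 9.49 CPM in shNT libraries. The values of shNT lay inside the range of shARMC5, and the log2 fold change was 0.023 ± 0.12 (SE, adjusted P = 0.952).

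ICAM1 had the largest fold change of the called members. ICAM1 (ENSG00000090339, chromosome 19 from 10271093 to 10286615, plus strand) encodes an adhesion molecule for leukocytes and is a classical NF-κB target. Its level was 41.0, 39.1 and 38.9 CPM in shARMC5 and 33.7, 28.9 and 26.9 CPM in shNT libraries. All shARMC5 libraries were higher than all shNT libraries, of which replicate 1 came nearest. The mean rose from 29.8 ± 3.51 CPM (SD, n = 3) to 39.7 ± 1.17 CPM (SD, n = 3), a ratio of 1.33. On the log2 scale ICAM1 rose by 0.41 ± 0.07 (SE, adjusted P = 0.00458), on 754 to 1542 reads per library. The exact permutation test again gave its smallest P of 0.1. Nearly all reads of ICAM1, 97.3%, were on the coding transcript ENST00000264832, whose own log2 fold change was 0.43 ± 0.09 (SE, unadjusted P = 0.00378, adjusted P = 0.420 over all transcripts).

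NFKB2 and ICAM1 were called in 14 of 15 alternatives. When single libraries were left out, the difference was 0.23 to 0.26 on the log2 scale for NFKB2 (adjusted P from 0.00342 to 0.0157) and 0.34 to 0.51 for ICAM1 (adjusted P from 0.000344 to 0.0373). With an offset for average transcript length in edgeR, which took the count over all genes from 1064 to 234, the adjusted P values rose to 0.106 for NFKB2 (log2 fold change 0.40) and 0.111 for ICAM1 (log2 fold change 0.39), and 0 members were called.

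**Figure D3:**
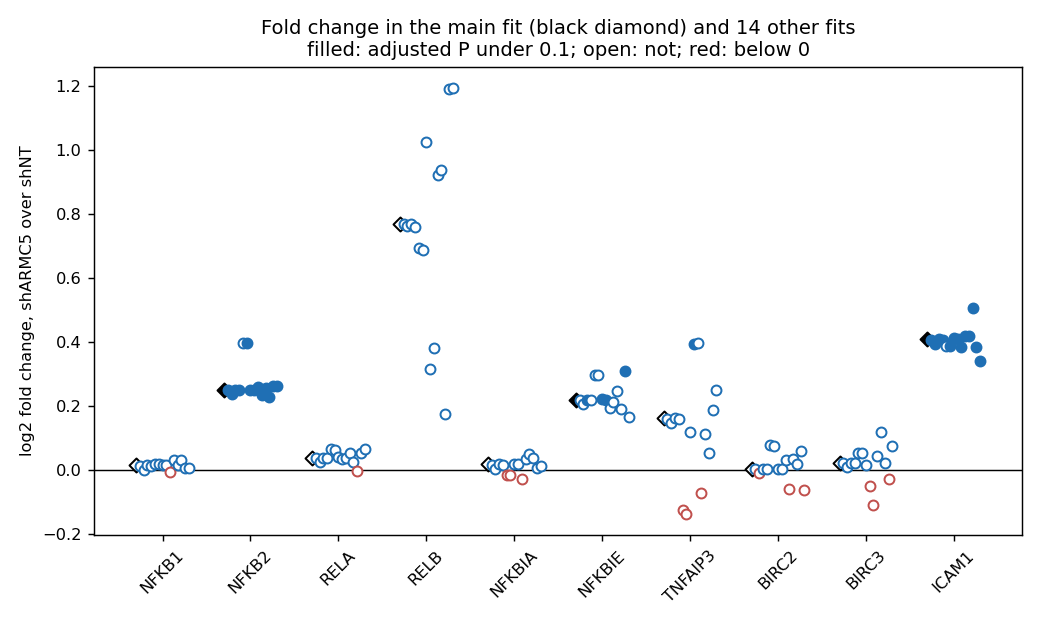
Log2 fold change (y axis) of the 10 genes in edgeR's fit (black diamond) and in 14 other fits (circles, filled where the adjusted P value was under 0.1, red where below 0). NFKB2 and ICAM1 lie above 0 in each fit, NFKBIE does so with few filled circles, and 6 genes have at least 1 circle below 0.

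**Figure D4:**
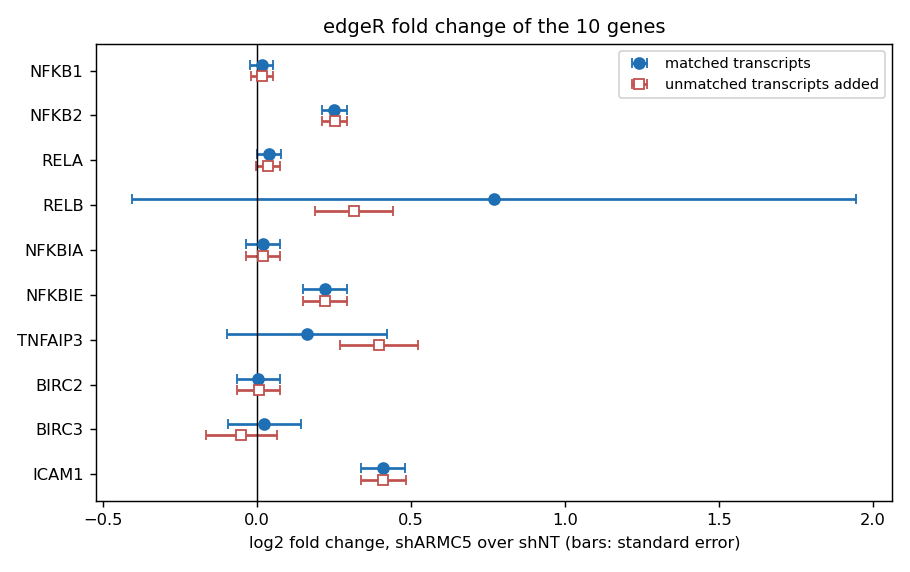
Log2 fold change (x axis) with its standard error for the 10 genes, from matched transcripts (blue) and with unmatched transcripts added to the gene listed before them (red squares). The estimate for RELB moves from 0.77 to 0.31 and that for TNFAIP3 from 0.16 to 0.40, while NFKB2 and ICAM1 stay within their error.

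The levels of different genes were compared per length, as TPM. In shNT cells RELA was highest with 59.3 ± 2.30 TPM (SD, n = 3), followed by NFKBIA with 39.3, NFKB1 with 31.6, NFKB2 with 29.95, NFKBIE with 22.6, BIRC2 with 19.7 and ICAM1 with 15.6 TPM. TNFAIP3 with 2.92, BIRC3 with 2.27 and RELB with 1.62 TPM were lowest. Of these neighbours, NFKBIE and BIRC2, BIRC2 and ICAM1, TNFAIP3 and BIRC3, and BIRC3 and RELB overlapped in their values by library. The canonical subunit RELA and its inhibitor NFKBIA were thus the most abundant of the 10 transcripts, and the RELB value covers matched transcripts only. With the unmatched transcripts added to the gene listed before them, RELB was at 8.29 ± 1.48 TPM (SD, n = 3) in shNT cells, above TNFAIP3 with 3.10 and BIRC3 with 2.44 TPM, so that the order of these genes turned.

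In shARMC5 cells NFKB2 stood second with 39.0 ± 4.71 TPM (SD, n = 3), next to NFKBIA with 38.4 TPM. ICAM1 reached 20.2 TPM, a level at which its libraries overlapped those of BIRC2 with 20.5 TPM. The TPM of NFKB2 rests on its average effective length, which was 2646, 2128 and 2252 bases in shARMC5 and 2640, 2615 and 2472 bases in shNT libraries. The 2 shARMC5 libraries with the shorter length were those with reads on the transcript of 356 bases, and the second rank rests on it. Without that transcript, a setting chosen after the data were examined, NFKB2 was at 34.3, 34.4 and 35.5 TPM in shARMC5 libraries, below NFKBIA, and still above all shNT libraries.

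Ratios of TPM between members were compared as measures of balance within the pathway, 4 in all, by two-sided exact permutation tests adjusted over the 4. NFKB2 to NFKB1 was 0.992, 1.44 and 1.30 in shARMC5 and 0.906, 0.942 and 0.9997 in shNT libraries (log2 difference 0.37, exact permutation P = 0.2, adjusted P = 0.533). The ratio of shARMC5 replicate 1 lay just under that of shNT replicate 3, so the groups overlapped. The mean of NFKBIA to RELA was 0.626 ± 0.0302 and 0.664 ± 0.0517 (SD, n = 3, exact P = 0.4), and that of BIRC3 to BIRC2 was 0.113 ± 0.0182 and 0.116 ± 0.0135 (SD, n = 3, exact P = 0.7). RELB to RELA, with the unmatched transcript counted to RELB, was 0.165 ± 0.0194 and 0.139 ± 0.0280 (SD, n = 3, exact P = 0.3). No ratio of TPM separated the groups. From CPM, NFKB2 to NFKB1 was 0.773, 0.839 and 0.798 in shARMC5 and 0.646, 0.702 and 0.700 in shNT libraries, without overlap (log2 difference 0.24, exact permutation P = 0.1, the smallest possible, adjusted P = 0.4), and the other 3 ratios overlapped. With the transcript of 356 bases left out, the ratio of TPM still overlapped (log2 difference 0.21).

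Of the 87 other genes of the pathway, in 5 lists by role, 73 could be tested, and of these 10 were called higher (13.7%) and 3 lower (4.11%), against 4.44% and 3.3% of all tested genes. With the offset in edgeR there were 3 higher calls and 1 lower call, where over all genes 139 were higher in place of 610, and 9 of the 15 alternatives gave 1 lower call. Their median log2 fold change was 0.03. These counts describe the lists and were not tested as sets.

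None of the 8 other subunits, IκB proteins and IκB kinase genes was called, and their median log2 fold change was -0.04. Log2 fold changes were -0.07 for REL, the subunit c-Rel, 0.03 for NFKBIB, which encodes IκBβ, and -0.10 and -0.01 for NFKBIZ and BCL3, which encode nuclear IκB proteins. For the IκB kinase they were 0.08 for CHUK, -0.14 for IKBKB (adjusted P = 0.163) and -0.03 for IKBKG. None of these 7 was called, and IKBKB had the smallest adjusted P value among them. BCL3 and IKBKG changed sign when single libraries were left out.

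Of the 24 upstream signalling genes 2 were called higher and 2 lower (8.33% each, against 4.44% and 3.3% of all tested genes), and the median log2 fold change was -0.01. MAP3K14, the noncanonical kinase NIK, had 71.9, 73.5 and 68.1 CPM in shARMC5 and 60.4, 63.7 and 56.2 CPM in shNT libraries, without overlap (log2 fold change 0.24 ± 0.05 SE, adjusted P = 0.00572). With the length offset in edgeR the log2 fold change was again 0.24, but the call was lost (adjusted P = 0.192). DESeq2 with that offset called MAP3K14 higher (adjusted P = 0.0559). RIPK1, a kinase of the tumour necrosis factor receptor complex, rose by 0.18 ± 0.05 (SE, adjusted P = 0.0556), a call missing in 7 of 15 alternatives. Without single libraries its log2 fold change was 0.16 to 0.22. TRAF5, an adaptor of such receptors, had 12.9, 12.6 and 12.3 CPM in shARMC5 and 17.5, 16.4 and 17.8 CPM in shNT libraries (log2 fold change -0.45 ± 0.07 SE, adjusted P = 0.00124). Its lower level was called in all 15 alternatives. TRADD, the adaptor that recruits RIPK1, was lower by -0.24 (adjusted P = 0.0964), a call that 12 of them did not give. The log2 fold change of TRADD was -0.26 to -0.21 without single libraries.

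Of the 11 brakes on the pathway, 2 were called higher (18.2%, against 4.44% of all tested genes) and 0 lower. PDLIM2, a ubiquitin ligase for nuclear RELA, rose from 16.3 ± 0.952 to 20.5 ± 0.568 CPM (SD, n = 3, log2 fold change 0.33, adjusted P = 0.00788 from edgeR), a call that was kept in DESeq2. It was lost with the length offset, both in edgeR (adjusted P = 0.215) and in DESeq2 with that offset (adjusted P = 0.145). The log2 fold change was 0.30 in both of these fits. TAX1BP1, a partner of A20, rose from 666.3 ± 9.29 to 721.9 ± 5.33 CPM (SD, n = 3, log2 fold change 0.12, adjusted P = 0.0123 from edgeR). Among the receptors, 10 of 12 were tested, and 1 (10%) was called higher, TNFRSF12A, the receptor for TWEAK, at 152, 147 and 145 CPM in shARMC5 and 109.7, 122 and 115 CPM in shNT libraries (log2 fold change 0.36 ± 0.04 SE, adjusted P = 2.60e-05). The call was kept in all 15 alternatives.

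Among the other target genes, 20 of 32 were tested, 5 were called higher (25%, against 4.44% of all tested genes) and 1 lower (5%, against 3.3%), and the median log2 fold change was 0.12. LIF, a cytokine of the interleukin-6 family, had 49.5, 52.7 and 47.9 CPM in shARMC5 and 36.3, 37.2 and 39.5 CPM in shNT libraries (log2 fold change 0.41 ± 0.05 SE, adjusted P = 0.000134). BCL2L1, which encodes the survival protein BCL-XL, rose by 0.17 (adjusted P = 0.00128), GADD45B, a stress-induced gene, by 0.31 (adjusted P = 0.0102) and SDC4, a cell surface proteoglycan, by 0.20 (adjusted P = 0.0129). KLF6, a zinc finger factor, rose by 0.14 (adjusted P = 0.0683), and SOD2, the mitochondrial superoxide dismutase, fell by 0.11 (adjusted P = 0.0711), and each of these calls was missing in 9 of 15 alternatives. Their log2 fold changes moved to 0.08 (KLF6, adjusted P = 0.625) and -0.06 (SOD2, adjusted P = 0.511) with the length offset in edgeR. With the length offset in edgeR the calls of LIF, GADD45B and SDC4 were lost (adjusted P = 0.193, 0.132 and 0.172). The log2 fold changes of these genes were 0.39, 0.31 and 0.20 in that fit. Of the tested CXC chemokines of the list, the log2 fold change was 1.07 for CXCL8 (adjusted P = 0.196, 6 to 31 reads per library) and 0.89 for CXCL2 (adjusted P = 0.240, 10 to 33 reads), and it was 0.11 for CXCL3 (adjusted P = 0.887, 38 to 57 reads). None of these was called.

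The remaining 14 pathway genes had at most 13 reads in any library and were not tested, and 7 of these, TLR4, CCL2, IL6, TNF, LTB, VCAM1 and IER3, were listed at 0 throughout. VCAM1 is, like ICAM1, an adhesion molecule for leukocytes.

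**Figure D5:**
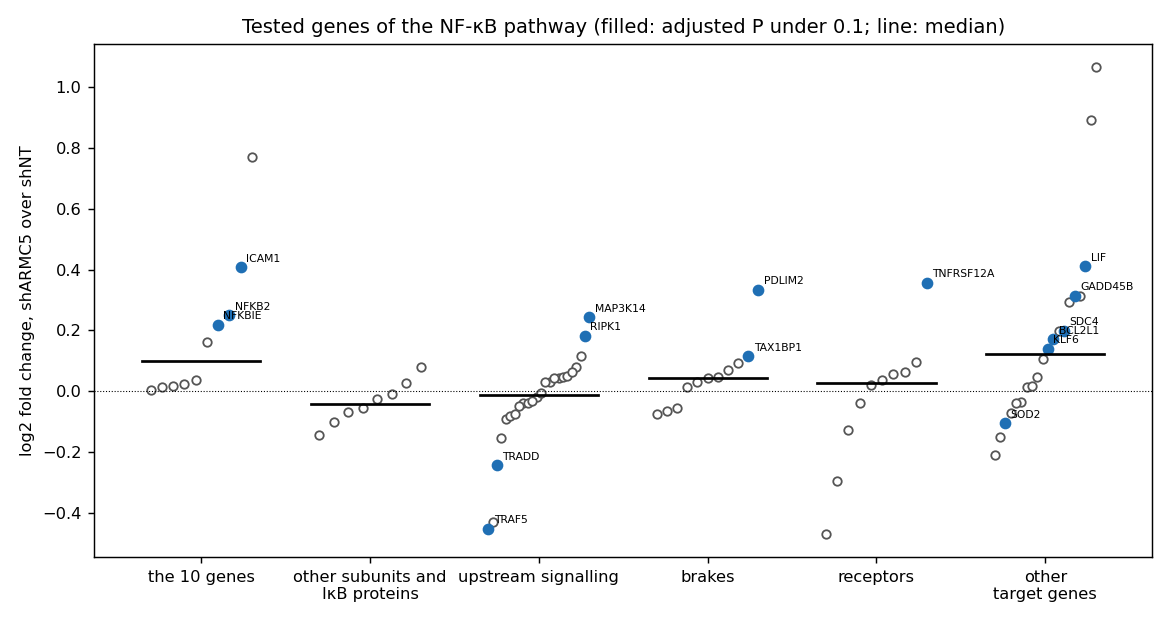
Log2 fold change (y axis) of each tested gene in the list of the 10 genes and in 5 lists of other pathway genes, with genes ordered by value, filled points for an adjusted P value under 0.1 and a line at the median. The medians run from -0.04 for the other subunits and IκB proteins to 0.12 for the other target genes, and called genes fall on both sides of 0 only in upstream signalling and in the other target genes.

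Genes with a pattern like that of ICAM1 were sought among 10292 tested genes outside the lists with a mean of at least 5 CPM, by the root mean square difference of log2 CPM centred over the 6 libraries. The nearest was SNX10, which encodes a sorting nexin, with a difference of 0.0575. Its level was 24.6, 25.7 and 25.3 CPM in shARMC5 and 22.9, 18.2 and 16.9 CPM in shNT libraries. As for ICAM1, the first shNT library was the highest of its group, a likeness that follows from how the gene was chosen. H2BC12L, a histone H2B gene whose reads may be shared with close copies, and MEIS2, which encodes a homeobox factor, followed with 0.0760 and 0.0783.

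Exons of some members overlap antisense genes, RELA-DT for RELA, WAKMAR2 for TNFAIP3, ENSG00000288528 for BIRC3, and LIMASI and ICAM4-AS1 for ICAM1. None of these antisense genes had a matched transcript in the files, and whether the counting used strand is not given in the sources used here, so reads from these pairs cannot be told apart.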

How the data were processed

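RNA-seq of polyadenylated RNA from 6 libraries was analysed. Per the labels, cutadapt 4.2 and Salmon 1.9.0 were the authors' tools, with the build hg38. The deposited files hold the estimated count of reads per transcript, not normalized between libraries, TPM scaled to 1000000 by salmon, and the length and effective length. The transcript set is not given in the sources used here. Of 177456 transcripts, 165533 matched GENCODE 44 by identifier without version, and 11923, with 2.96 to 3.04% of the reads, did not and were left out.

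The counts of a gene's transcripts were added and rounded. A minimum of 10 counts in 3 or more libraries was required, and the test was that of edgeR 4.0.16 (R 4.3.3), the quasi-likelihood F test with robust fitting, TMM factors of 0.992 to 1.02, group as the only term, and Benjamini-Hochberg adjustment at 0.1. The same test was run on transcripts. The standard errors (SE) given with edgeR's log2 fold changes are the absolute log2 fold change divided by the square root of the F statistic. They are thus not independent of the P values. The script was tested on simulated data. Exact permutation tests used scipy 1.17.1. Tables and figures were made with pandas 2.3.3, numpy 2.4.6 and matplotlib 3.10.9 under Python 3.11.15.

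The counting error is largest for the members with the fewest reads, RELB, TNFAIP3 and BIRC3. The members and the gene lists were chosen with earlier results of these data known. Named are the 10 members, ARMC5, at most 5 called genes each way per list by P value, 7 subunit and kinase genes whether called or not, transcripts with at least 10% of the reads of their gene, and the 3 genes nearest in pattern to ICAM1. ENST00000651907, the unmatched transcripts, CXCL2, CXCL3, CXCL8, the untested genes at 0 and the antisense genes were added to these with their values known.

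The alternatives were DESeq2's size factors, library size only, no filter on low counts, DESeq2 1.42.0 without and with a length offset, that offset in edgeR, the replicate number as a block, single libraries left out, a threshold of 0.05, and unmatched transcripts added to the gene listed before them. For the ratios these were CPM in place of TPM and single libraries left out. The count of RELB with its unmatched transcript, used for the ratio, and NFKB2 without ENST00000651907 were chosen after the data were examined.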

Additional observations from a re-analysis of the deposited data

How the results depend on the processing

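Of the 10 members, 3 were called higher. With a transcript length offset in edgeR 0 were, with unmatched transcripts added 4, and without single libraries 2 to 3. Called lower were 0 in each of the 15 alternatives. Of the other pathway genes, 10 were called higher, 3 with that offset and 8 to 11 without single libraries. Of these genes 3 were called lower, 1 with DESeq2, 1 with the length offset in edgeR, 1 with that offset in DESeq2, 1 at a threshold of 0.05, and 1 to 2 without single libraries. Over all genes this offset in edgeR gave 234 calls in place of 1064, and the cause was not tested.

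Of the 7 members that were not called, 6 changed sign. NFKBIA was -0.0168 with the length offset in edgeR and -0.0173 in DESeq2, and -0.0286 (without shARMC5 replicate 1) to 0.0485 without single libraries. TNFAIP3 was -0.126 and -0.138 with these offsets and -0.0709 (without shARMC5 replicate 2) to 0.398 without single libraries. BIRC2 was -0.0106 by library size only and -0.0623 to 0.0599 without single libraries, below 0 without shARMC5 replicate 2 or shNT replicate 3. BIRC3 was -0.0516 with unmatched transcripts added and -0.108 to 0.120 without single libraries, below 0 without shARMC5 replicate 1 or shNT replicate 2. Leaving out single libraries also gave -0.00548 (without shARMC5 replicate 1) to 0.0319 for NFKB1, -0.00334 (without shNT replicate 1) to 0.0665 for RELA, -0.0962 to 0.0442 for BCL3 and -0.118 to 0.0514 for IKBKG. The log2 difference of the ratio of BIRC3 to BIRC2 was 0.00475 with CPM and -0.173 to 0.0434 without single libraries.

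In the paired fit with the replicate number as a block, 3 members were called higher and 0 lower, 11 other pathway genes higher and 4 lower, and 0 member transcripts. Over all genes the block moved the calls from 1064 to 1766. Deviations from the group mean of libraries with the same number had correlations of -0.0499, -0.0470 and 0.0762 over 10369 genes. Not every library correlated best with its own number. With 3 libraries in a group these values cannot show whether libraries with the same number shared a culture or batch, and the labels do not say. Over all genes 536 were called without shNT replicate 1, 600 without shARMC5 replicate 2 and 694 without shNT replicate 3. By library size only 458 were higher and 495 lower, against 610 and 454. The standard errors of TNFAIP3 and RELB fell from 0.26 to 0.13 and from 1.18 to 0.13 when unmatched transcripts were added.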
